A study of Mus musculus with 12 samples.

Results

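The comparison described here is between naive gingiva of Cybb-deficient mice (Cybb-/-, written CybbKO) and naive gingiva of wild-type mice (WT), across all genes. The 6 libraries were chosen by their labels, 3 from WT and 3 from CybbKO mice, out of 12 RNA-seq libraries in the series. The other 6 libraries came from gingiva of the same 2 genotypes after a silk ligature had been tied around a maxillary molar for 8 days, and they are used below only where a naive value is set beside them. Naive mice carried no ligature. Per the labels the wild type was C57BL/6, mice were younger than 12 weeks, and each group had 3 mice matched in age and sex. The WT mice were bought from a vendor and the CybbKO line was a gift from another laboratory, so genotype and colony cannot be told apart.

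Cybb, on the X chromosome, encodes gp91phox, the catalytic chain of the phagocyte NADPH oxidase Nox2. The chain sits in the membrane with p22phox (Cyba), and cytosolic proteins, among them p47phox (Ncf1) and p40phox (Ncf4), and a Rac GTPase join it when the cell is activated. The assembled enzyme passes electrons from NADPH to oxygen and makes superoxide. Neutrophils, monocytes and macrophages hold most of it, and loss of any of its chains causes chronic granulomatous disease, with infections and excessive inflammation. Gingiva is a keratinised epithelium over dense collagenous tissue around the teeth, into which neutrophils migrate continuously even without disease.

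Between 27958819 and 37747939 reads per naive library were counted on genes. Of the 21965 genes in the table, 15046 passed the filter on low counts and were tested, and levels are given as CPM, the count of a gene scaled to a common library size with edgeR's TMM factors, which correct for differences in RNA composition. The oral epithelium named by the tissue label was present: Krt13, the mucosal keratin, stood between 26770 and 40100 CPM in the 6 libraries and Krt4 between 14130 and 26140 CPM. The library of WT replicate 3 stood apart. Its log2 CPM correlated with the other 5 naive libraries at 0.960 to 0.981 over tested genes, against 0.983 to 0.992 among those 5, and it held far more RNA of mucous gland genes, with values given below.

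The targeted gene was examined first, and its level went against the label. Cybb (ENSMUSG00000015340, chrX:9435252-9487771 on GRCm38, minus strand) had 5.60, 5.38 and 4.19 CPM in the WT libraries. In the libraries labelled CybbKO it had 41.6, 56.3 and 45.9 CPM. The groups lay far apart, with means of 47.9 ± 7.56 and 5.06 ± 0.758 CPM (SD, n = 3 each), 9.48-fold higher. The log2 fold change was 3.24 with an SE of 0.21 (95% interval 2.78 to 3.70, adjusted p = 0.000128 by edgeR's quasi-likelihood test with Benjamini-Hochberg adjustment). The exact two-sided permutation test gave p = 0.1, which is the smallest that 3 against 3 libraries allow. Reads were summed over all exons of Cybb, so these counts cannot tell which exons they covered or whether a working protein was made. They also do not check the targeted change in the gene. Whether the genotype labels were exchanged cannot be told from these counts, and if they were, every signed difference below would take the opposite sign. Directions are given as the labels stand, libraries labelled CybbKO against those labelled WT.

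**Figure D1:**
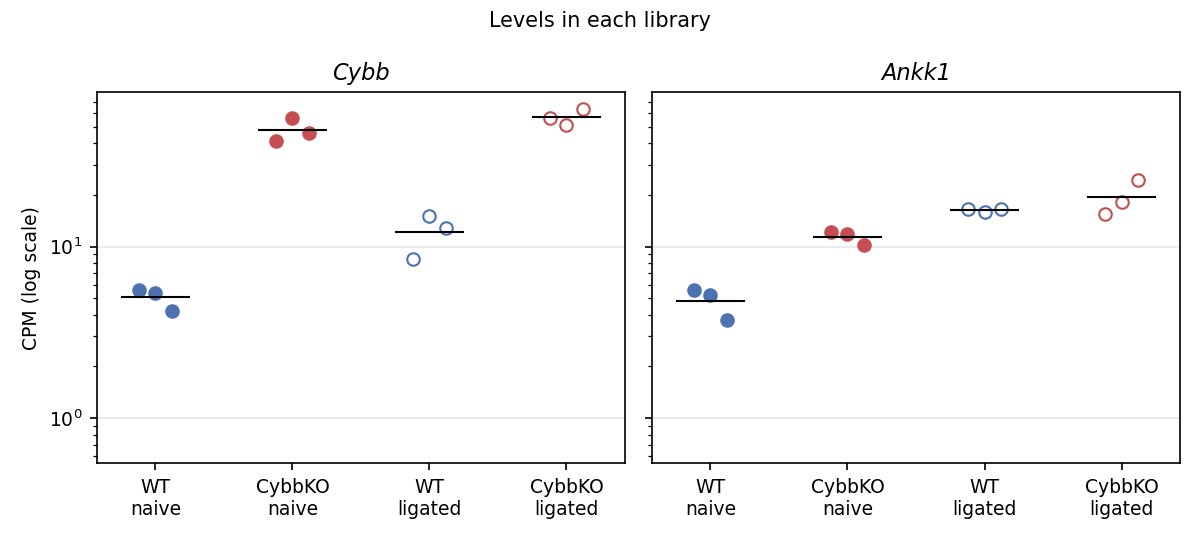
CPM of Cybb and Ankk1 in each of the 12 libraries on a log axis, with filled points for naive and open points for ligated tissue, WT in blue and CybbKO in red, and a line at each group's mean. The 3 naive CybbKO libraries sit at 41.6 to 56.3 CPM of Cybb, above the 3 naive WT libraries at 4.19 to 5.60.

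The promoter of Cybb is shown because this gene carried the only difference called by edgeR. The window is chrX:9469275-9469574 of GRCm38.p6 (RefSeq), minus strand, 250 bases before to 50 bases after the RefSeq start, which lies inside the longer gene span given above. Capitals mark a CCAAT box and TTCCTC, which reads GAGGAA on the other strand, the core of sites bound by PU.1, a myeloid transcription factor.
Cybb: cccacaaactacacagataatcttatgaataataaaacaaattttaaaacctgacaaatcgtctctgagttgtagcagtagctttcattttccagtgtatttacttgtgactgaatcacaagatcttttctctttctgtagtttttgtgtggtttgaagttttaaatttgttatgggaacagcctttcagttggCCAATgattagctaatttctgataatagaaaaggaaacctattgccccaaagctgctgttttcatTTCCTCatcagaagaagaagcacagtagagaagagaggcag
Among 32851 promoter windows of this length, 28.3% held GAGGAA and 37.4% held CCAAT on either strand. TATAAA, which 13.6% of windows held, was not in this window. The matches are descriptions of the sequence and say nothing of binding.

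None of the tested partners of gp91phox passed the test. Of the 14 tested genes of the NADPH oxidase family, Cybb was the 1 that passed the test, where 0.00665% of all tested genes were called. Cyba had 2.41, 2.06 and 6.23 CPM in WT and 4.04, 2.11 and 3.97 CPM in CybbKO libraries. Ncf1 had 2.99, 3.04 and 3.65 CPM against 3.20, 2.33 and 3.69. The groups overlapped for both, and the log2 fold changes were -0.08 for Cyba, -0.07 for Ncf1 and -0.03 for Ncf4. Their 95% intervals reached no further than -0.92 to 0.77, so a change of 2-fold in these subunits lay outside them. Rac2, the Rac GTPase of blood cells, had a log2 fold change of 0.39 with a 95% interval of -0.30 to 1.08, which reaches past 2-fold, and Cybc1, a chaperone needed for gp91phox to mature, 0.16 (SE 0.16). Rac1 differed by -0.01 on the log2 scale with an interval of -0.26 to 0.24.

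The oxidases of epithelium and stroma were measured with unequal precision, and 9 of the 14 tested family members had intervals within 2-fold. Duox1, which makes hydrogen peroxide at epithelial surfaces, stood at 125 to 150 CPM in WT and 125 to 163 CPM in CybbKO libraries, a log2 fold change of -0.0012 (95% interval -0.30 to 0.30). Its maturation factor Duoxa1 differed by -0.05 (SE 0.19). Nox4, a constitutively active oxidase, differed by -0.22 (95% interval -1.03 to 0.60), and Noxo1, an organiser of Nox1, by -0.29 (-1.03 to 0.46). Duox2 and Duoxa2 had log2 fold changes of -0.11 and 0.08, the latter with an SE of 0.65, so that its interval also reached past 2-fold in both directions. None of these passed the test, and Nox1, Nox3 and Noxa1 had 20, 0 and 0 counts in total over the 6 libraries and were not tested.

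Over all genes, Cybb was the 1 called gene of 15046 tested in naive tissue, which is 0.00665%. The next smallest adjusted p was 0.38, for Ankk1. At an unadjusted p under 0.05 there were 306 genes, 92 of them higher (0.611% of those tested) and 214 lower (1.42%) in CybbKO. If no gene differed, a share of 0.05 would be expected at this threshold, which is more than both shares together. With DESeq2, a second count model, Ankk1 joined Cybb for 2 calls on the 12 libraries, with 429 genes at unadjusted p values below 0.05. The median log2 fold change over all tested genes was 0.0023, and 50.5% were higher.

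The few calls do not show that the tissues were alike, so the room left by the error was measured. For 77.1% of tested genes the 95% interval of the fold change lay within 1 of 0 on the log2 scale, that is within 2-fold in either direction. This share depended on the level of the gene. It was 8.78% for genes under 1 CPM, 63.4% between 1 and 10 CPM, 94.6% between 10 and 100 CPM and 96.8% above that. An estimate beyond 2-fold was seen for 421 genes, but the interval lay wholly beyond 2-fold for 4. These were Cybb, Gzmb, Acan and Dmbt1, of which the last pair are named after their values were seen. Acan, which encodes the cartilage proteoglycan aggrecan, had 0.274, 1.11 and 1.71 CPM in WT against 0.289, 0.111 and 0.0915 CPM. Dmbt1, a mucin-like gland protein, had 0.0305, 81.1 and 121 CPM in WT against 3.46, 4.02 and 4.39 CPM in CybbKO libraries, so the WT libraries lay on both sides of the CybbKO libraries.

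**Figure D2:**
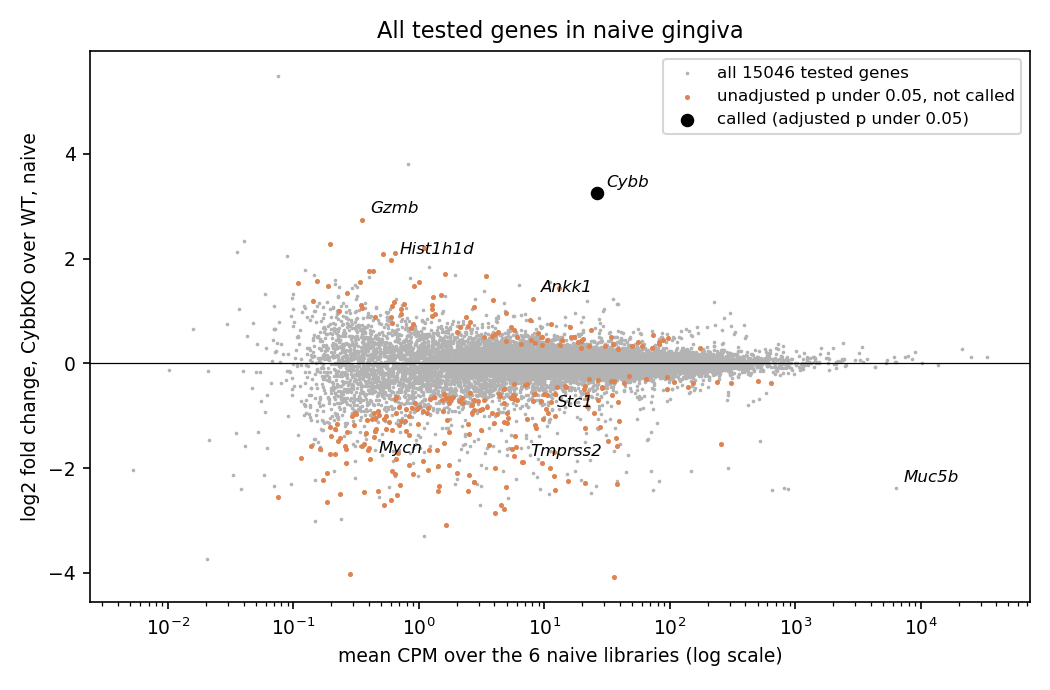
Log2 fold change of CybbKO over WT in naive gingiva (vertical axis) against mean CPM over the 6 naive libraries (horizontal log axis), 1 point per tested gene. Cybb, in black, stands at 3.24 and is the 1 called gene, and the 306 genes with an unadjusted p under 0.05 are drawn in orange or black.

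WT replicate 3 was often at the end of the range for these genes. A WT library was the highest of the 6 for all 214 lower genes, which their choice largely sets, and it was WT replicate 3 for 140 of them, WT replicate 2 for 50 and WT replicate 1 for 24. Of the 92 higher genes WT replicate 3 was the lowest library for 43. Over all tested genes it was the highest for 24.8% and the lowest for 26.7%. Without it, 198 genes were higher and 257 lower at an unadjusted p under 0.05, and without CybbKO replicate 2 there were 156 higher and 130 lower. Leaving out WT replicate 1 gave 273 higher and 533 lower genes, and leaving out WT replicate 2 gave 78 and 370. Cybb remained the 1 called gene without any of the naive libraries in turn.

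Among genes whose groups did not overlap, those with the smallest p are given next, first the ones higher in the libraries labelled CybbKO. The higher genes without overlap numbered 313, or 2.08% of those tested. Ankk1 (chr9:49415194-49427021), a kinase gene beside the dopamine receptor gene Drd2, had 5.57, 5.19 and 3.72 CPM in WT and 12.1, 11.8 and 10.2 CPM in CybbKO libraries. The spread within each group was small, and the means differed 2.35-fold. Its log2 fold change was 1.23 with an SE of 0.20 (edgeR adjusted p = 0.38, DESeq2 adjusted p = 4.57e-05). In ligated tissue Ankk1 differed by 0.24 (SE 0.19), and the difference between the tissues had an unadjusted p of 0.00379 in the fit across all genes, which did not pass adjustment. Fam81a, a gene of unsettled function, differed by 0.09 (SE 0.21) in naive tissue.

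The granzymes, serine proteases that cytotoxic lymphocytes release into target cells, were also among the 10 higher genes of smallest p. Gzmb had 0.0609, 0.0316 and 0.182 CPM in WT against 0.346, 0.638 and 0.854 CPM in CybbKO libraries. Gzma had 0.183, 0.190 and 0.365 CPM against 0.779, 0.638 and 1.74. The groups did not overlap for either gene, the levels were low, and the log2 fold changes of 2.75 (SE 0.73) and 2.10 (SE 0.68) did not pass adjustment. In whole tissue, more cells of a type and more RNA per cell cannot be told apart. Cfb, which encodes complement factor B, had 0.335, 0.285 and 0.547 CPM against 0.750, 0.832 and 0.915 (log2 fold change 1.10, SE 0.36). Hist1h1d, a linker histone gene, rested on 0.183 to 0.292 CPM in WT and 0.577 to 1.31 CPM in CybbKO libraries. Slc2a12, a glucose transporter gene, and Trnp1, which encodes a nuclear protein of neural progenitors, differed by 0.50 and 0.49 on the log2 scale with SEs of 0.16. Aipl1, a photoreceptor chaperone gene, differed by 1.27 (SE 0.34), and Sohlh1, a germ cell transcription factor gene, stood at 0.146 to 0.253 CPM in WT and 0.462 to 0.777 CPM in CybbKO libraries.

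Genes lower in the libraries labelled CybbKO without overlap numbered 456 (3.03%). Tmprss2, a membrane serine protease of epithelia, had 10.3, 3.70 and 17.2 CPM in WT and 3.00, 3.00 and 2.41 CPM in CybbKO libraries. The WT libraries spread widely while the CybbKO libraries stayed close together, and the log2 fold change was -1.89 (SE 0.43). Stc1, which encodes the secreted hormone stanniocalcin, had 15.6, 13.2 and 13.6 CPM against 8.95, 5.91 and 7.11 (log2 fold change -0.95, SE 0.26). Here both groups were tight. Mycn, a growth-promoting transcription factor gene, had 0.457, 0.791 and 0.656 CPM against 0.144, 0.111 and 0.275 CPM (log2 fold change -1.83, SE 0.46). Fam13a (-0.84), Ism1 (-0.72), which encodes the secreted protein isthmin, Cep112 (-0.71), which encodes a centrosomal protein, and Xkr6 (-0.90) made up the moderately expressed rest, with SEs of 0.19 to 0.25. Rnf17, a germ cell gene, Tmsb15b1, a thymosin gene, and 4921507P07Rik were all at or below 1.19 CPM. None of these genes passed adjustment by edgeR or by DESeq2 on the 12 libraries.

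**Figure D3:**
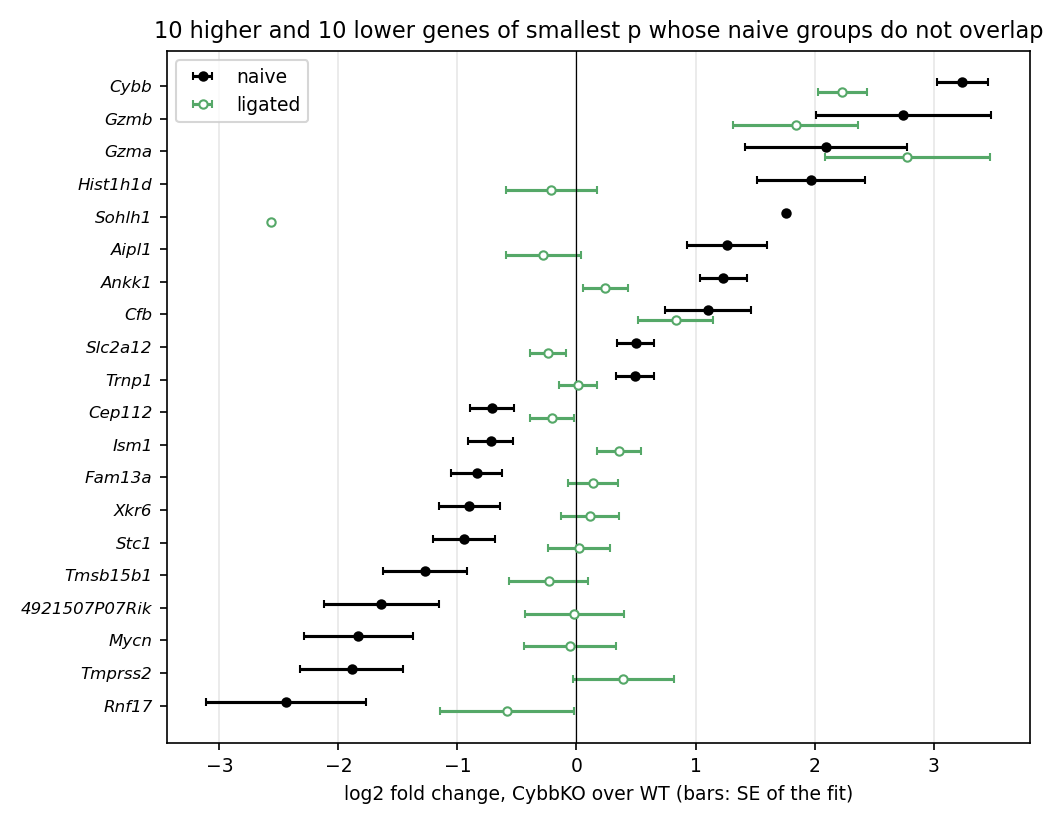
Log2 fold change of CybbKO over WT, with the SE of the fit as bars, for the 10 higher and 10 lower genes of smallest p whose naive groups did not overlap, in naive (filled) and ligated tissue (open), no SE being available for Sohlh1. Cybb, Gzmb, Gzma and Cfb lie above 0 in both tissues, while Hist1h1d, Aipl1 and Slc2a12 lie above 0 in naive tissue and below 0 in ligated tissue.

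DESeq2 fitted to the 6 naive libraries alone called 12 genes. These were Cybb, Ankk1, Tmprss2 and Stc1 together with Hbb-bs and 7 genes named here after their values were seen. Ppbp, which encodes platelet basic protein, a neutrophil attractant, had 197, 210 and 208 CPM in WT and 372, 398 and 430 CPM in CybbKO libraries. The groups were tight and far apart, yet edgeR's joint fit gave a log2 fold change of 0.97 with an SE of 0.60. Mmp10, Mmp12 and Mmp13 encode matrix-degrading proteases and lie in a cluster on chromosome 9. Mmp10 had 7.49, 6.74 and 10.9 CPM in WT against 3.35, 2.03 and 2.65 CPM, Mmp12 had 8.35, 9.49 and 11.9 against 5.02, 4.74 and 4.39, and Mmp13 had 10.3, 13.2 and 15.6 against 6.61, 3.08 and 5.28. All 3 proteases were lower in every CybbKO library than in any WT library, by -1.64, -1.07 and -1.38 on the log2 scale, and in ligated tissue the same genes had log2 fold changes of 1.22, 0.78 and 1.46. The remaining 4 were 3 globin genes, described below, and Apol11b, with at most 0.213 CPM in WT and 0.664 to 2.72 CPM in CybbKO libraries. None of these 8 genes, Hbb-bs included, was called by edgeR on the same 6 libraries or on all 12.

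The 6 ligated libraries share no library with the naive contrast and were used to see which naive differences recurred. Of the 313 genes higher without overlap in naive tissue, 28 (8.95%) were also higher without overlap in ligated tissue, where 5.01% of all tested genes were. Of the 456 lower genes, 9 (1.97%) were also lower, against 2.84% of all tested genes. The 37 genes in the same direction in both tissues are 0.246% of those tested, and 28 genes went in opposite directions. Cybb, Gzma, Gzmb, Cfb, Ifi213, an interferon-induced gene, and Kng2, a kininogen gene, were among the 28 higher genes, and Cep112 among the 9 lower genes.

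Taken over both tissues in a single contrast, edgeR again called Cybb alone (0.00665% of tested genes), with 370 genes at an unadjusted p under 0.05. DESeq2 called 10 genes for that contrast. Besides Cybb and Ankk1 these were Gzmb, Gzma, Kng2, Ifi213, Gbp4, Gbp5, Tgtp2 and 9430007A20Rik. Gbp4 and Gbp5 encode guanylate-binding proteins induced by interferon gamma, and Tgtp2 encodes a GTPase of the same response. In naive tissue Gbp4 had 10.9, 5.66 and 4.45 CPM in WT and 10.1, 11.4 and 35.6 CPM in CybbKO libraries, so the groups overlapped and CybbKO replicate 3 was the highest. For 9430007A20Rik the highest naive level was 0.980 CPM, in WT replicate 2. No gene passed the test of a difference between the naive and the ligated genotype contrast, by edgeR (342 at an unadjusted p under 0.05) or by DESeq2 (447).

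Lymphocyte markers had mostly positive estimates in the libraries labelled CybbKO, at very low levels. Of 13 tested T and NK cell genes 10 were higher, with a median log2 fold change of 0.50 against 0.0023 over all genes, and 0 were called. The median was 1.33 without WT replicate 1 and 0.28 without WT replicate 3. At an unadjusted p under 0.05, 3 were higher, where 0.611% of all tested genes were, namely Gzma, Gzmb and Cd8a, the cytotoxic T cell coreceptor chain, which is named after its values were seen. Cd8a had 0.335, 0 and 0.255 CPM in WT against 0.433, 0.749 and 1.34 CPM, with no overlap. The summed level of the list overlapped between the groups, at 6.60 to 19.1 CPM in WT and 12.5 to 19.6 CPM in CybbKO libraries. Il7r, the interleukin-7 receptor gene, had a log2 fold change of -0.32 (SE 0.43). Cd4, also a T cell coreceptor gene and named after its values were seen, had the lowest estimate of the list, -0.83. Of B cell genes 4 of 9 could be tested and all 4 were higher, with a median of 0.65 that was 1.26 without WT replicate 1. None was called.

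Neutrophil genes were measured with wide errors, and intervals lay within 2-fold for 3 of 13 granule genes and 4 of 18 receptor genes. Of the granule genes 8 were higher (median 0.29), and of the receptor genes 14 were higher (median 0.41), with 0 called in either list. The median of the granule genes was 0.06 without CybbKO replicate 3, 0.60 without CybbKO replicate 2 and 0.58 without WT replicate 1, and it turned to -0.20 over the genes with at least 10 counts in every library. The median of the receptor genes was 0.14 without CybbKO replicate 1 and 0.69 without CybbKO replicate 2. S100a9, a subunit of calprotectin, had 467, 219 and 198 CPM in WT and 508, 483 and 467 CPM in CybbKO libraries. WT replicate 1 thus lay with the CybbKO libraries, and the log2 fold change was 0.72 (SE 0.54). S100a9 is also made by oral epithelium, as is Hcar2, which had 112 to 131 CPM in WT and 118 to 135 CPM in CybbKO libraries. Ly6g, the defining surface marker of mouse neutrophils, was at or below 0.0866 CPM in all 6 libraries. Mmp25, a membrane protease of neutrophils, had 0.305, 0.190 and 0.182 CPM against 0.520, 0.444 and 0.458 CPM, without overlap, the 1 receptor gene with an unadjusted p under 0.05 (log2 fold change 1.05, SE 0.39), where 0.611% of all tested genes were higher at that p and 2.08% higher without overlap. The other genes of these lists without overlap were lower, where 3.03% of all tested genes were, and are named after their values were seen. Mmp9, a granule gelatinase that osteoclasts also make, had 28.99, 34.3 and 41.9 CPM in WT against 24.7, 11.9 and 20.99 CPM (-0.87, SE 0.52). Il1r2, the decoy receptor of interleukin-1, had 12.2, 10.7 and 10.8 CPM against 10.6, 9.96 and 7.20 CPM (-0.28, SE 0.23). Wfdc21, a secreted antiprotease gene, had 0.0305, 0.0316 and 0.146 CPM against 0.433, 0.111 and 0.122. The granule genes that early precursors make, Mpo, Elane, Prtn3 and Ctsg, named after their values were seen, had 13, 3, 2 and 3 counts in total and were not tested.

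Macrophage and dendritic cell markers had mostly negative estimates. Of 18 monocyte and macrophage genes 14 were lower (median -0.24, and -0.11 without WT replicate 3), with 0 called. Lower without overlap were 3 of them, where 3.03% of all tested genes were. Ly6c2, a monocyte gene named after its values were seen, had the highest estimate of the list, 1.10. Adgre1, which encodes the macrophage antigen F4/80, differed by -0.25 (SE 0.24). Msr1, a scavenger receptor, had 1.16, 1.58 and 1.28 CPM against 0.779, 0.610 and 0.854 CPM, without overlap (log2 fold change -0.84, SE 0.44). All 10 dendritic and Langerhans cell genes were lower, with a median of -0.48 (-0.40 without WT replicate 3 and -0.28 without WT replicate 1) and 0 at an unadjusted p under 0.05. Epcam, on that list but also an epithelial and gland gene, had 37.7, 44.2 and 153 CPM in WT against 41.0, 42.3 and 46.0 CPM, and only WT replicate 3 was high. Of 7 MHC class II genes 6 were higher, with a median of 0.13 and all 7 intervals within 2-fold. That median was -0.08 without CybbKO replicate 3 and 0.31 without CybbKO replicate 2. Cd74, the invariant chain, differed by 0.24 (SE 0.28) and Ciita, the class II transactivator, by 0.23 (SE 0.22). Of 8 mast cell genes 6 were lower (median -0.30, 0.03 without WT replicate 3 and -0.51 without WT replicate 1). Kit, the stem cell factor receptor, differed by -0.30 (SE 0.26). Mrgprb1, a mast cell receptor, had 0.335, 0.664 and 0.802 CPM against 0.173, 0.416 and 0.275 CPM.

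Connective tissue and bone genes had lower estimates in the libraries labelled CybbKO, and no single gene passed the test. All 18 fibroblast and matrix genes had negative log2 fold changes, with a median of -0.52, and 4 did not overlap, where 3.03% of all tested genes were lower without overlap. None was called or reached an unadjusted p under 0.05. Sparc, a collagen-binding protein, had 561, 618 and 912 CPM in WT and 562, 380 and 462 CPM in CybbKO libraries. Lox, the enzyme that cross-links collagen, had 9.75, 10.8 and 24.1 CPM against 7.25, 6.49 and 7.26 CPM (log2 fold change -1.09, SE 0.49). WT replicate 3 was the highest library for both genes, and without it the median of the list was -0.34. All 10 tested osteoblast and bone genes were lower (median -0.64, -0.46 without WT replicate 3 and -1.02 without CybbKO replicate 1). Alpl, the phosphatase of mineralising cells, had 6.94, 13.8 and 19.4 CPM against 9.99, 5.52 and 6.44 CPM, and Runx2, the osteoblast transcription factor, differed by -0.17 (SE 0.33). Of 10 osteoclast genes 7 were lower (median -0.54, and -0.28 without WT replicate 3) and 5 of them without overlap, against the same 3.03% of all tested genes. Ctsk, the collagen-degrading protease of osteoclasts, had 31.2, 37.6 and 36.0 CPM against 29.7, 23 and 24.3 CPM, and Ocstamp, an osteoclast fusion gene, had 0.244, 0.221 and 0.182 CPM against 0.116, 0.0277 and 0.0915 CPM. Dcstamp, also a fusion gene and named after its values were seen, had the highest estimate of the osteoclast list, 0.58. In ligated tissue the medians of the fibroblast, osteoblast and osteoclast lists were 0.27, -0.05 and 0.36.

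Genes of the oral epithelium had small estimates with narrow intervals, and those of the cornified envelope were more varied. Of 16 oral epithelium genes 9 were higher, with a median of 0.08 (-0.09 without CybbKO replicate 1 and 0.26 without CybbKO replicate 2), and 15 had intervals within 2-fold. The largest of these log2 fold changes was that of Krt4, at 0.28 (SE 0.27), and Krt13 differed by 0.12 (SE 0.30). Of 16 cornified envelope genes 10 were higher (median 0.07, and -0.13 without CybbKO replicate 1), and 13 had intervals within 2-fold. Ivl, the envelope protein involucrin, named after its values were seen, had the lowest estimate, -0.62 (SE 0.43), with 1.92, 6.29 and 2.33 CPM against 2.51, 1.83 and 2.53 CPM, where WT replicate 2 was the high library. Tgm3, a transglutaminase that builds the envelope, differed by 0.08 (SE 0.28), and Sprr1b, an envelope precursor, had 153, 181 and 182 CPM in WT against 177, 94.2 and 112 CPM (log2 fold change -0.43, SE 0.22). Endothelial genes gave a median of 0.01 over 15 genes (-0.11 without WT replicate 1 and 0.14 without WT replicate 3), with Pecam1 at 41.3 to 47.1 CPM in WT and 42.7 to 47.0 CPM in CybbKO libraries. Flt1, a receptor for vascular endothelial growth factor, differed by 0.19 (SE 0.20). Of 10 Schwann cell and nerve genes 9 were lower, with a median of -0.17 that was 0.03 without WT replicate 3 and -0.41 without WT replicate 1. Mbp, a myelin protein, differed by -0.04 (SE 0.15), and S100b by -0.80 (SE 0.40).

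**Figure D4:**
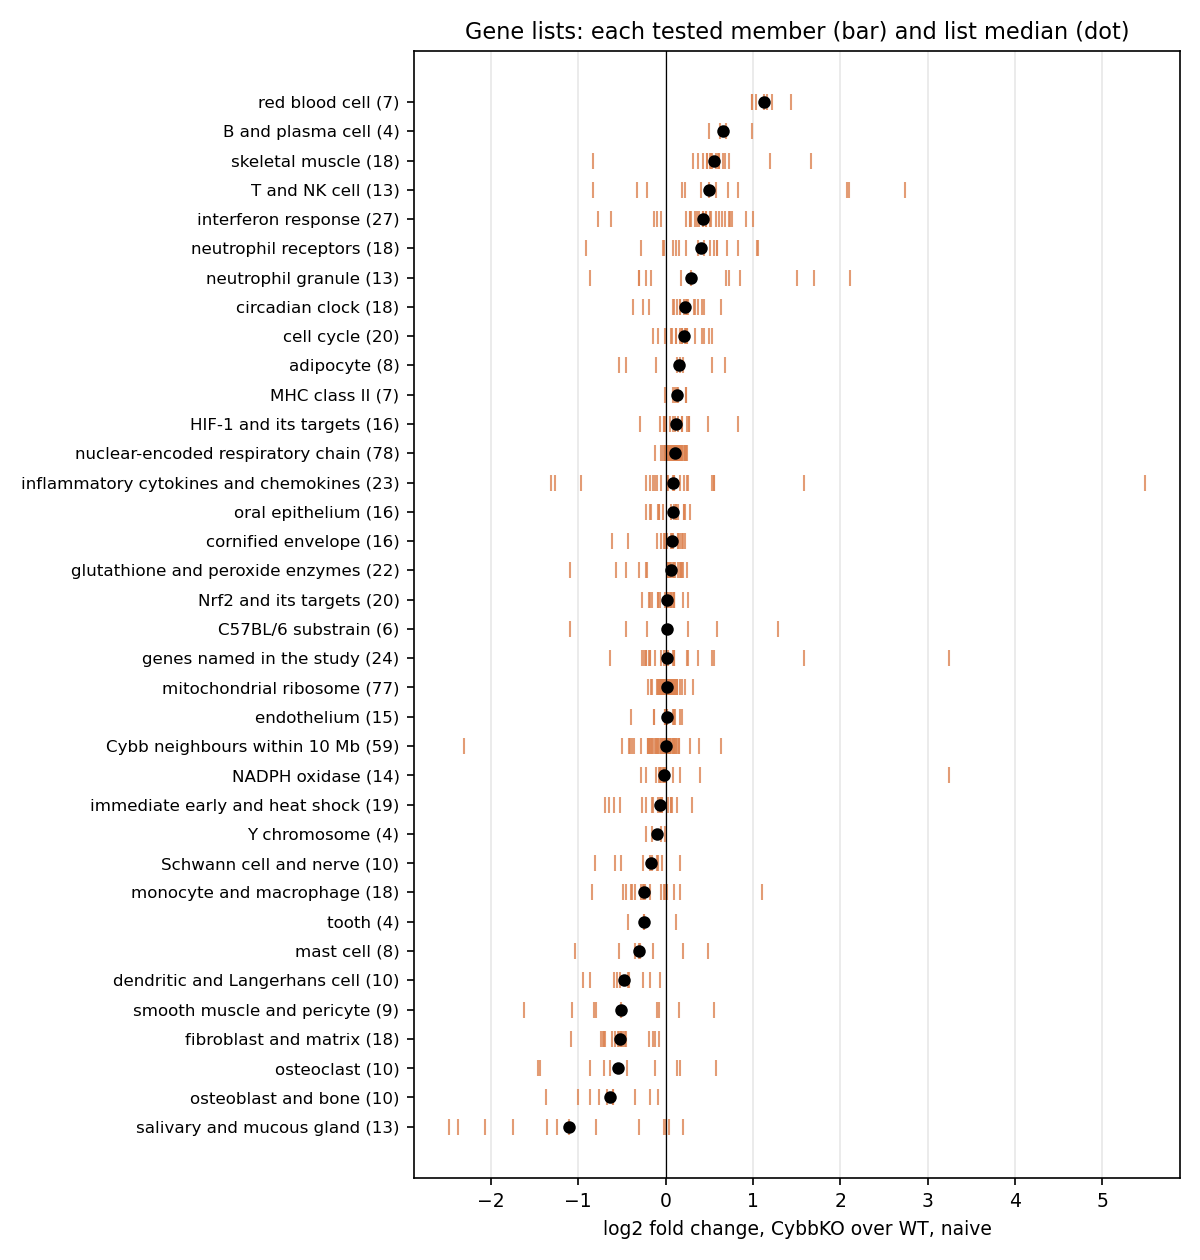
Log2 fold change of CybbKO over WT in naive gingiva for each tested member (bars) of 36 gene lists and the list median (dots), with the number of tested members in brackets; the bar at the far right is Il17f, at 0 counts in all 3 WT libraries, whose fitted value depends on an added prior count. Red blood cell genes lie highest, with a median of 1.13, and gland genes lowest, with -1.11.

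Genes of glands and muscle, which lie next to the gingiva, differed widely between libraries of the same genotype. The 16 salivary and mucous gland genes in the table summed to 175, 2965 and 30480 CPM in WT replicates 1, 2 and 3 and to 1838, 2284 and 2756 CPM in the CybbKO libraries. Muc5b, the mucin of mucous glands, had 55.6, 2732 and 28940 CPM in WT against 1610, 2010 and 2477 CPM, and Aqp5, the water channel of gland acini, 0.274, 5.85 and 113 CPM against 7.27, 5.11 and 8.91 CPM. Of the 13 tested gland genes 10 were lower, with a median of -1.11 that became 0.72 without WT replicate 3 and -1.69 without WT replicate 1. Neither value describes the genotypes, since the WT libraries lay both above and below all CybbKO libraries. Skeletal muscle genes were higher for 17 of 18 genes (median 0.55), and the sums were 1906, 3679 and 1332 CPM in WT and 1485, 3206 and 5438 CPM in CybbKO libraries. Atp2a1, the calcium pump of fast muscle, stood highest in CybbKO replicate 3 at 820 CPM, and without that library the list median was 0.03, against 1.08 without WT replicate 2. Actn3, a fast-fibre actinin, had 0.335, 1.36 and 3.28 CPM against 6.81, 7.63 and 1.16 CPM. Smooth muscle and pericyte genes had a median of -0.51 over 9 genes that became 0.38 without WT replicate 3. Rgs5, a pericyte gene, differed by -0.08 (SE 0.34) and Pdgfrb by -0.51 (SE 0.28).

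**Figure D5:**
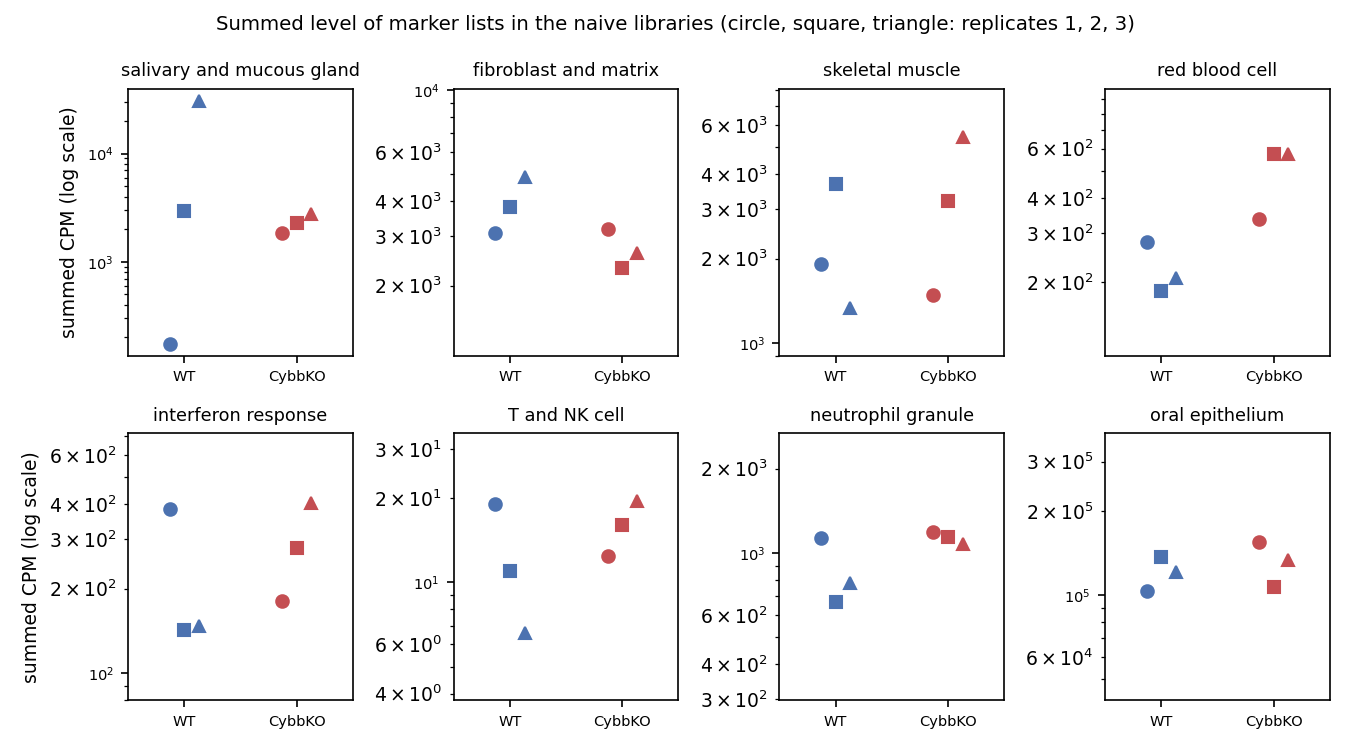
Summed CPM (log axis, with a range of its own in each panel) of the genes of 8 lists in the 3 WT and 3 CybbKO naive libraries, where circle, square and triangle mark replicates 1, 2 and 3. Gland genes range from 175 to 30480 CPM within WT, and the red blood cell sums do not overlap, at 187 to 278 CPM in WT and 337 to 573 CPM in CybbKO libraries.

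Red blood cell genes were higher in all 7 cases, with a median log2 fold change of 1.13, and 4 did not overlap, where 2.08% of all tested genes were higher without overlap. Hbb-bs, the major adult beta globin, had 172, 119 and 127 CPM in WT and 211, 354 and 370 CPM in CybbKO libraries. Hba-a1, an alpha globin gene named after its values were seen, had 26.7, 20.7 and 25.7 CPM against 42.4, 54.4 and 63.2 CPM. Hbb-bt, a beta globin gene likewise named after its values were seen, had 26.04, 16.0 and 21.2 CPM against 33.1, 59.0 and 55.6 CPM. No library labelled CybbKO was as low as a WT library for any of these genes. The log2 fold changes, 1.17 for Hbb-bs, 1.13 for Hba-a1 and 1.22 for Hbb-bt, had SEs of 1.05, 1.03 and 1.12 in edgeR's joint fit and were called by DESeq2 on the 6 naive libraries alone (adjusted p = 0.0109 for Hbb-bs). In ligated tissue the list median was -0.79. The share of blood in the dissected tissue was not measured, and its part in these values was not tested. The globin genes are near-identical copies, so reads may be split between them. Of adipocyte genes 5 of 8 were higher (median 0.15, but -0.45 without CybbKO replicate 1 and -0.05 without WT replicate 2). Fabp4, a fatty acid carrier, differed by 0.20 (SE 0.39) and Pparg, the adipocyte transcription factor, by -0.53 (SE 0.35). Of 4 tested tooth genes 3 were lower (median -0.25, from -0.37 without CybbKO replicate 1 to -0.04 without CybbKO replicate 2). Odaph differed by -0.24 (SE 0.34) and Klk4, an enamel protease, by -0.25 (SE 0.32).

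Nrf2, encoded by Nfe2l2, switches on detoxifying and antioxidant enzymes when Keap1 releases it under oxidative stress. Of its 20 genes 12 were higher, the median was 0.02 (-0.06 to 0.06 when a naive library was left out), and all 20 intervals lay within 2-fold, where 94.6% of all tested genes between 10 and 100 CPM and 96.8% of those above did. All 20 genes were above 10 CPM. Nfe2l2 had 909, 1000 and 628 CPM in WT against 774, 740 and 704 CPM (log2 fold change -0.19, SE 0.18). Its target Nqo1, a quinone reductase, had 202, 122 and 143 CPM against 117, 131 and 141 CPM (-0.27, SE 0.20). The other targets ranged on both sides of 0, with Hmox1, haem oxygenase, at 0.10 (SE 0.24), Gclc and Gclm, the subunits of glutathione synthesis, at -0.18 and 0.20, and Fth1, ferritin heavy chain, at 0.01. Of 22 glutathione and peroxide enzymes 16 were higher, with a median of 0.06, and 18 had intervals within 2-fold. That median ran from 0.002 to 0.10 when a naive library was left out. Of these enzymes 2 were lower without overlap, where 3.03% of all tested genes were, namely Gpx8 (log2 fold change -0.21), named after its values were seen, and Nnt (-1.09), a mitochondrial transhydrogenase described below that had the smallest p of the list. Prdx6, a peroxiredoxin, differed by 0.20 (SE 0.18).

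Nuclear genes of the mitochondrion had small estimates. Of 78 nuclear-encoded respiratory chain genes 73 were higher, but the median was 0.11, the largest log2 fold change was 0.24, and without CybbKO replicate 3 the median was 0.03. Atp5b, a subunit of ATP synthase, had 1089, 1170 and 1080 CPM in WT against 1085, 1145 and 1301 CPM, and Atp5s differed by 0.23 (SE 0.15). Of 77 mitochondrial ribosome genes 47 were higher (median 0.02, and -0.03 without CybbKO replicate 3), with all 77 intervals within 2-fold. Mrpl24 differed by 0.03 (SE 0.10) and Mrpl34 by 0.32 (SE 0.21). Genes of the response to low oxygen through HIF-1 were higher for 11 of 16 (median 0.12, and 0.24 without WT replicate 3), with 0 called. At an unadjusted p under 0.05, 2 were higher, where 0.611% of all tested genes were. Higher without overlap were 2, against 2.08% of all tested genes. Ankrd37, a HIF-1 target, had 3.75, 8.07 and 4.70 CPM against 11.7, 8.41 and 9.18 CPM, without overlap (log2 fold change 0.83, SE 0.34), while Hif1a itself differed by -0.02 (SE 0.30) and Ldha, lactate dehydrogenase, by 0.14 (SE 0.15).

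No gene of the cytokine and chemokine list was called by edgeR in tissue without a ligature, and Ppbp, called by DESeq2 on the 6 naive libraries, is not on that list. Of 23 cytokine and chemokine genes 14 were higher, with a median of 0.08 that was -0.10 without WT replicate 2 and 0.31 without WT replicate 1. Il1b, which encodes interleukin-1 beta, had 17.5, 12.2 and 17.0 CPM in WT and 34.6, 9.82 and 23.95 CPM in CybbKO libraries, so the CybbKO libraries lay on both sides of WT (log2 fold change 0.55, SE 0.50). In ligated tissue Il1b had 24.3, 42.1 and 98.7 CPM in WT and 162, 99.5 and 186 CPM in CybbKO libraries, without overlap and without passing adjustment. Cxcl5, a neutrophil attractant of epithelium, had 168, 93.6 and 102 CPM against 163, 178 and 184 CPM (0.53, SE 0.62), and Cxcl1 and Cxcl2, of the same family, differed by 0.03 and 0.08 with SEs of 0.64 and 0.68. Csf3, granulocyte colony-stimulating factor, differed by 0.26 (SE 0.67) and Tnf by -0.05 (SE 0.39). Il1a, the interleukin-1 of epithelium, differed by 0.10 (SE 0.27), and Ccl2, a monocyte attractant, by -0.22 (SE 0.57). Il17a was at most 0.183 CPM in WT and 0.305 to 0.346 CPM in CybbKO libraries. Ccl20, an attractant of Ccr6-bearing cells, ran the other way, with 0.609, 0.474 and 0.838 CPM against 0.231, 0.139 and 0.427 CPM. Il6 and Tnfsf11, the osteoclast factor RANKL, were below 0.49 CPM in all 6 naive libraries. Tnfrsf11a and Tnfrsf11b, the receptor and the decoy receptor of RANKL, differed by -0.64 (SE 0.44) and 0.24 (SE 0.38), and Csf1, the macrophage growth factor, by -0.17 (SE 0.25).

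Interferon genes were higher for 22 of 27 members, with a median of 0.43 and 0 called. Their sums were 384, 142 and 147 CPM in WT and 180, 279 and 403 CPM in CybbKO libraries. The highest pair of libraries were WT replicate 1 and CybbKO replicate 3, from both genotypes. Without WT replicate 1 the list median was 1.30 and without CybbKO replicate 3 it was 0.03. Gbp5 had the smallest p of the list, with 4.33, 1.99 and 3.32 CPM against 3.61, 4.55 and 11.2 CPM (log2 fold change 1.00, SE 0.52).

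Proliferation, stress and clock genes also overlapped between the genotypes in their summed levels. Of 20 cell cycle genes 17 were higher (median 0.21, and -0.07 without CybbKO replicate 3). Mcm5, a subunit of the replicative helicase, had 35.8, 36.3 and 21.3 CPM against 44.3, 28.2 and 59.5 CPM, and Mcm6 differed by 0.23 (SE 0.26). Of 19 immediate early and heat shock genes, which respond to handling of tissue, 13 were lower (median -0.06, and 0.14 without WT replicate 1). Hspa8 and Hspa1a differed by -0.05 (SE 0.25) and -0.27 (SE 0.20). Of 18 circadian clock genes 15 were higher (median 0.23). Cry2, a repressor of the clock, had 59.7, 51.6 and 51.4 CPM against 69.3, 79.0 and 62.6 CPM, without overlap (log2 fold change 0.37, SE 0.27). The clock genes Arntl, Per2, Dbp and Nr1d1 differed by -0.38, 0.34, 0.22 and -0.20 with SEs of 0.27 to 0.73.

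Genes of the Y chromosome were expressed in all 6 naive libraries, and none of them passed the test. Eif2s3y stood at 87.0 to 102 CPM in WT and 86.4 to 104 CPM in CybbKO libraries, and the intervals of all 4 tested genes, Ddx3y, Kdm5d and Uty being the others, lay within 2-fold. Nnt, which C57BL/6J mice lack in part, had 0.426, 0.221 and 0.219 CPM in WT and 0.144, 0.167 and 0.0915 CPM in CybbKO libraries. It was low in both genotypes, without overlap and with a log2 fold change of -1.09 (SE 0.52). Of the other substrain genes, Wdfy1 differed by 0.59 (SE 0.33), Ide by -0.21 (SE 0.22), Fgfbp3 by -0.46 (SE 0.34), Cyfip2 by 0.25 (SE 0.26) and Nlrp12 by 1.29 (SE 0.71), and 0 of the 6 tested were called.

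The neighbourhood of the targeted gene was looked at because a targeted allele can carry flanking sequence of another strain. Of 126 genes within 10 Mb of Cybb 59 were tested, 29 higher and 30 lower, with a median of -0.00025 and 0 at an unadjusted p under 0.05. On the whole X chromosome 24 of 493 tested genes (4.87%) had an unadjusted p under 0.05, against 1.08% to 2.94% on the autosomes. Of these 24 genes 23 were lower in the libraries labelled CybbKO, Cybb being the exception, and 16 had a mean under 1 CPM. An example, named after its values were seen, is Tenm1, a teneurin gene of neurons, with 0.335, 0.380 and 0.182 CPM in WT against 0.0577, 0.0277 and 0.122 CPM. Another is Cldn2, a tight junction gene, with 2.13, 14.6 and 173 CPM against 8.89, 15.0 and 14.3 CPM, where only WT replicate 3 was high. Without WT replicate 3, 6 of the 24 kept an unadjusted p under 0.05, and 15 of 502 tested X-linked genes had one, a share no larger than that of all genes, 455 of 15185.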

How the data were processed

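Gingival mRNA from 12 libraries (3 mice per genotype and condition) was prepared with a stranded poly-A kit. The authors deposited a table of raw read counts per gene, made from reads aligned to GRCm38. Their methods name STAR and featureCounts, while the submitters' processing notes name HTSeq (version 0.10.0) and FastQC (version 0.10.1), and the deposited table is itself named for HTSeq. Counts were deposited without normalization.

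From these counts, genes passing edgeR's filterByExpr were tested in edgeR 4.0.16 (R 4.3.3) by a quasi-likelihood fit over all 12 libraries with TMM factors, which thus share 1 estimate of the spread. The contrast was CybbKO minus WT in naive tissue, with Benjamini-Hochberg adjustment over 15046 genes and a call at an adjusted p under 0.05. SEs were taken from the fitted coefficients, with 95% intervals. DESeq2 1.42.0 was an alternative, as were DESeq2 size factors in edgeR, library size only, a robust fit, no filter, at least 10 counts in every library, the 6 naive libraries alone, a replicate block and leaving out each library. An interval covers the spread between libraries, and the depth of 27958819 to 42613423 counts per library limits only genes of low level.

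The members and lists were chosen with earlier results of these data known, and 35 gene lists and the genes within 10 Mb of Cybb are described by counts and medians, with no test of the list. The genes named were those called, the 10 higher and 10 lower genes of smallest p without overlap, all members of the NADPH oxidase, study, Y chromosome, clock and substrain lists, the highest-expressed and smallest-p member of each other list, and Ankk1 and Fam81a. In simulated counts edgeR recovered 47% of genes changed 2-fold and 83% changed 4-fold with 3.13% of calls false, and DESeq2 67% and 86.6% with 18.0% false, for this contrast over 14956 and 15046 genes. Naive libraries were not paired by replicate number. The same-number correlations of deviations from the group mean were -0.28, 0.08 and 0.12, and those of different numbers ran from -0.41 to 0.44. Such correlations cannot tell whether libraries of the same number were handled together. Gene positions came from GENCODE M21, and the promoter from RefSeq (GRCm38.p6). Some genes that these rules would name are not reported here.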

Additional observations from a re-analysis of the deposited data

Results flagged for a closer look

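The genotype difference in Cybb was larger in naive than in ligated tissue, by 1.01 on the log2 scale (3.24 against 2.23). In ligated tissue WT libraries had 8.41, 15.2 and 12.8 CPM of Cybb and libraries labelled CybbKO 56.1, 51.1 and 63.7 CPM. The test of that difference in the fit across all genes gave an unadjusted p of 0.00523 and an adjusted p of 1 by edgeR's quasi-likelihood test with Benjamini-Hochberg adjustment, and all 3 libraries labelled CybbKO were above all 3 WT libraries in either tissue.

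Slc2a12, a glucose transporter gene, was higher without overlap in naive CybbKO libraries (log2 fold change 0.50) and lower without overlap in ligated CybbKO libraries (-0.24). The genotype differences in naive and ligated tissue were 0.74 apart on the log2 scale, with an unadjusted p of 0.00551 and an adjusted p of 1 by edgeR.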

How the results depend on the processing

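Cybb was called under all 15 alternative settings of the naive contrast, with a log2 fold change of 3.11 to 3.33, a range set by leaving out each naive library in turn. The number of called genes was 1 under edgeR whatever the scaling, filter or library left out, 2 with DESeq2 on 12 libraries and 12 with DESeq2 on the 6 naive libraries. For both tissues together it was 1, also when any library was left out, and 10 with DESeq2. The test between tissues called 0 genes, and 0 to 1 when each library was left out, the 1 being Gm5678 without WT naive replicate 2. With a replicate block the calls were 1 in naive tissue, 1 in both tissues and 0 between tissues, and Cybb differed by 3.23, so the block changed no call. Genes without overlap numbered 1411 to 2852 when a naive library was left out, since 2 libraries overlap less often with 3. The median of the genes near Cybb ran from -0.0866 to 0.0203, and the share of genes with intervals within 2-fold from 70.7% to 73.3%, when a naive library was left out, and that share was 78.6% with the 6 naive libraries alone. Of 141 named genes that were not called, 48 changed sign in at least 1 setting. The 20 top genes were chosen for groups that do not overlap, which largely fixes their sign. Of 36 list medians 17 kept their sign in all settings. Genes under 1 CPM were limited by depth and spread, with 8.78% of intervals within 2-fold.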
